A study of Mus musculus with 6 samples.

Results

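The mitochondrial ribosomal protein genes are the nuclear genes whose symbols start with Mrpl or Mrps followed by a number. The table holds 69 of them among 23930 genes, 43 with an Mrpl symbol (large subunit) and 26 with an Mrps symbol (small subunit). By the place of the protein in the particle they divide into 45 large and 24 small subunit genes, because the products of Mrps30 and Mrps18a sit in the large subunit despite their symbols. Genes were tested for a difference if at least 3 libraries reached 5 RPM (a gene's reads, scaled for library size), which 66 members did. All counts of members below cover these 66 unless another number is given.

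Transcript levels came from CD31-positive cells sorted from subcutaneous flank tumours in C57/Bl6 mice, grown from the mouse lung cancer line LLC (Lewis lung carcinoma). In the 3 control libraries (replicates 1, 2 and 3) the injected cells were control LLC cells, and in the 3 BMP9 overexpression libraries (replicates 4, 5 and 6) they overexpressed BMP9, a bone morphogenetic protein that is secreted and acts on endothelial cells. Tumours of both groups were taken 2 weeks after injection, and the labels name no alteration of the host mice. Nothing in the labels says that each library is a separate animal, so p-values here measure the spread between samples, and that spread may be technical.

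Mitochondria translate the few mRNAs of their own DNA, all of which encode subunits of the respiratory chain and ATP synthase, on ribosomes of their own. The rRNAs of these mitoribosomes are transcribed in the organelle, but every protein of the particle is encoded in the nucleus, made in the cytosol and imported. Some of the proteins descend from those of bacterial ribosomes, and others were added in the mitochondrial lineage. Growing and dividing cells need them to build respiratory capacity.

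The libraries held between 1321762 and 4583428 reads in controls and 1974510, 4409655 and 28380957 reads in BMP9 replicates 4, 5 and 6. Pecam1, which encodes CD31, was measured at 448 ± 84.3 RPM in controls and 303 ± 53.5 RPM with BMP9 overexpression (SD, n = 3 each), and Cdh5, which encodes the endothelial adhesion molecule VE-cadherin, at only 4.58 to 13.5 and 3.17 to 8.17 RPM. Gdf2, which encodes BMP9, had 0 reads in each control library and 1, 1 and 5 reads in BMP9 replicates 4, 5 and 6. Of 14 pan-endothelial markers 5 were abundant enough to test, and the 14 summed to 391 to 585 RPM in controls and 285 to 408 RPM with BMP9 overexpression, whereas leukocyte markers were plentiful. All 14 tested T and NK cell markers of 15 listed were lower with BMP9 overexpression, and their summed level was 5871 to 6383 RPM in controls against 739 to 1381 RPM. All 13 tested macrophage and monocyte markers of 16 listed were higher, at 4990 to 7653 RPM in controls against 19746 to 25966 RPM. All 20 tested cell cycle genes of 22 listed were lower, at 2516 to 3263 RPM against 403 to 491 RPM. Among other lists, all 5 tested neutrophil markers of 9 were higher (24.9 to 44 RPM in controls against 216 to 326 RPM), as were all 3 tested platelet markers of 8 (37.1 to 72.7 against 586 to 811 RPM) and 5 of 12 immediate-early and heat shock genes (4188 to 5161 against 5160 to 6965 RPM). The summed levels of the immediate-early and heat shock list overlapped between the groups. By the same test 22.5% of all tested genes were lower and 12.7% higher. Of all these lists only the platelet list had a marker at 0 in every library, Gp6. These shifts moved with every difference described for the mitochondrial ribosomal protein genes, and their part in it was not tested. In a bulk sample fewer cells of a type and less RNA per cell cannot be told apart.

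In deposited RPM, transcripts of mitochondrial ribosomal proteins were mostly less abundant with BMP9 overexpression. Of the 66 tested members, 19 fell, all of them 1.85 to 3.65-fold in mean RPM, and Mrpl20, Mrpl46, Mrpl13, Mrpl44 and Mrpl11, all large subunit genes, fell furthest on the log2 scale. The 19 are 28.8% of the members, against 22.5% of all 9460 tested genes that were lower and 35.2% that were called in either direction, and the other 47 did not pass the test (limma-trend on log2(RPM + 1), Benjamini-Hochberg adjusted p under 0.05). In the other direction limma called 0 members, against 12.7% of all tested genes. At an unadjusted p under 0.05 the same test gave 4 members higher (6.06%, against 16% of all tested genes) and 29 lower (43.9%, against 29.2%).

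The direction was shared more widely than the calls. A negative log2 difference was found for 52 of 66 members, or 78.8%, against 60.8% of all tested genes. In 29 members (43.9%) every BMP9 library lay below every control library, as it did for 31.2% of all tested genes, and in 4 members (6.06%) every BMP9 library lay above, as it did for 16.8%. The median log2 difference was -0.58 over the tested members and -0.24 over all tested genes. Larger falls were about as frequent as elsewhere: 13 members (19.7%) were over 2-fold lower on the log2(RPM + 1) scale, against 18.7% of all tested genes. Scaling the libraries with TMM factors, which take the bulk of genes as level, moved the median of all tested genes from -0.24 to 0.01 and that of the members from -0.58 to -0.34, and left 6 members lower (9.09%, against 14.6% of all tested genes) and 4 higher (6.06%, against 17.2%). Without control replicate 1 only 5 members passed as lower (7.58%, against 14.5% of all tested genes).

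**Figure D1:**
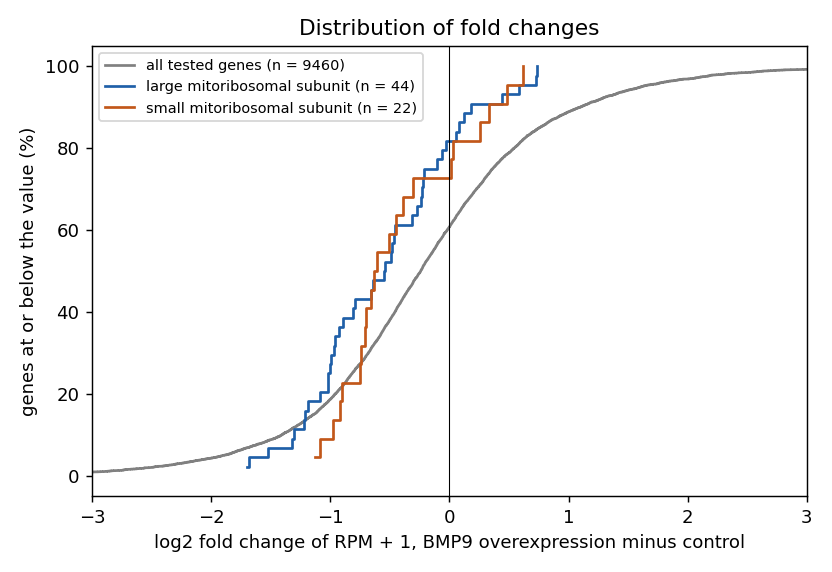
Cumulative share of genes (vertical axis, percent) at or below each log2 fold change of RPM + 1, BMP9 overexpression minus control (horizontal axis), for 44 large subunit genes, 22 small subunit genes and all 9460 tested genes. Both subunit curves lie to the left of the curve of all tested genes over most of the range, with medians of -0.55, -0.62 and -0.24.

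**Figure D2:**
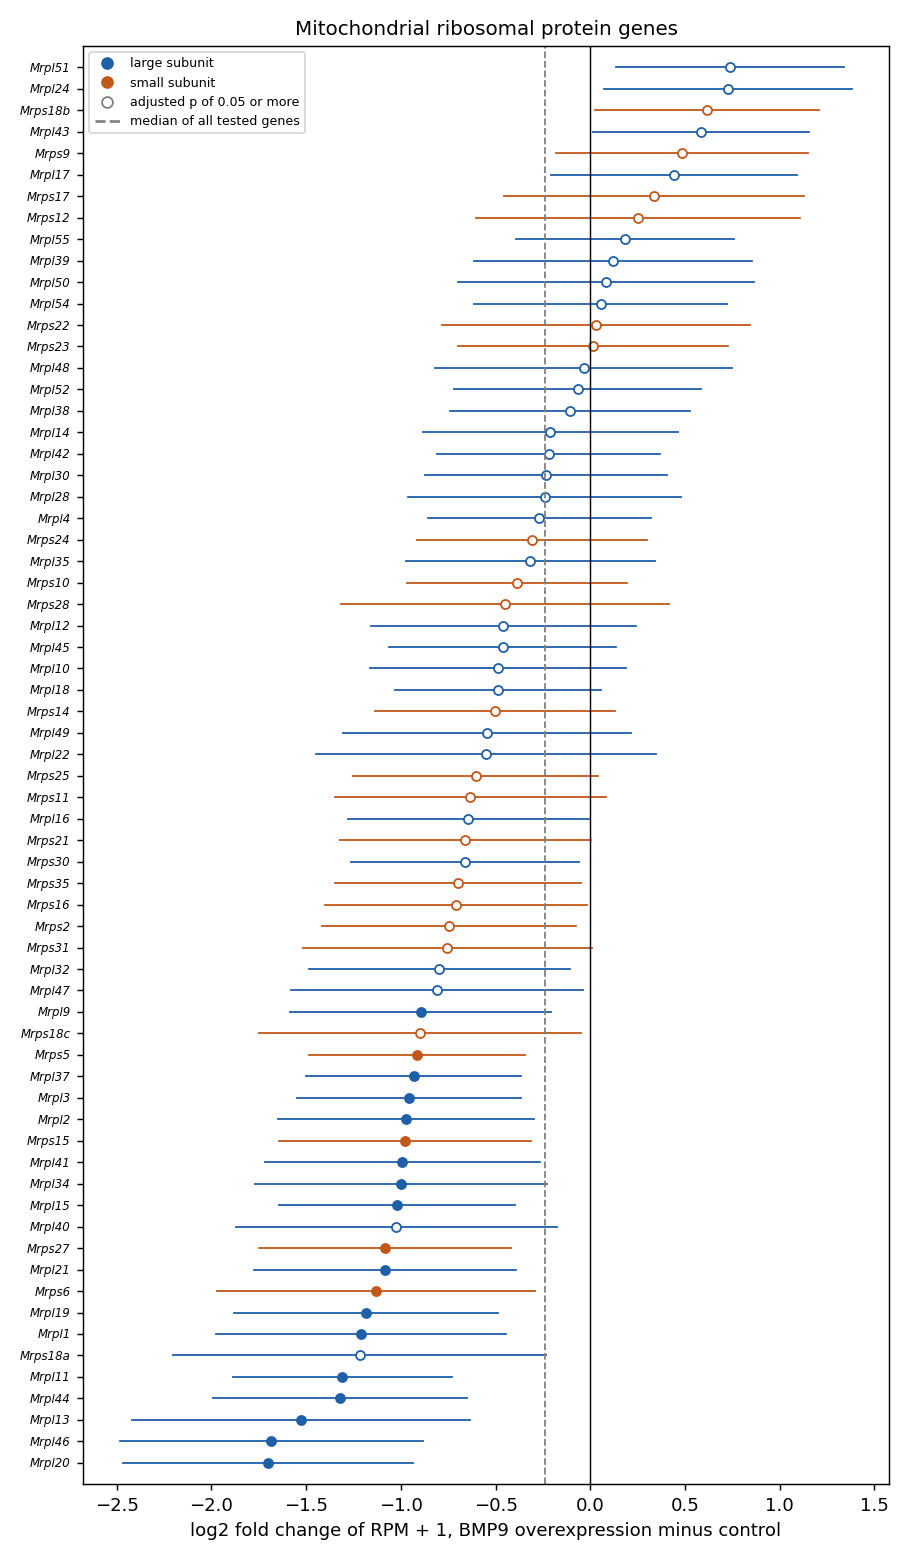
Log2 fold change of RPM + 1 (horizontal axis, BMP9 overexpression minus control) of each of the 66 tested members (vertical axis), with the 95% confidence interval of the limma fit as a bar. Filled points passed an adjusted p of 0.05 (19 genes, all below 0), open points did not, and the dashed line is the median of all tested genes, -0.24.

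Summed over the 69 members, control replicates 1, 2 and 3 gave 3561, 3965 and 3452 RPM, and BMP9 replicates 4, 5 and 6 gave 2933, 2935 and 2810 RPM. On this deposited scale the 3 BMP9 libraries all lay below the lowest control. Divided by the TMM factors, the sums were 3107, 3820 and 3147 in controls and 3142, 3256 and 3087 with BMP9 overexpression, so the groups overlapped and the difference of the means went from -20.9% to -5.84%. As deposited, the members took 0.366% ± 0.027 of the reads in controls and 0.289% ± 0.00713 with BMP9 overexpression (SD, n = 3 each). Both subunits shared in this, the large at 2646 ± 206 against 2107 ± 85.2 RPM and the small at 1013 ± 69.7 against 786 ± 25.3 RPM. The ratio of large to small was 2.61 ± 0.0971 in controls and 2.68 ± 0.18 with BMP9 overexpression (SD, n = 3), a difference within the spread of either group. The median member moved from 42.5 ± 4.73 to 28.5 ± 1.72 RPM.

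**Figure D3:**
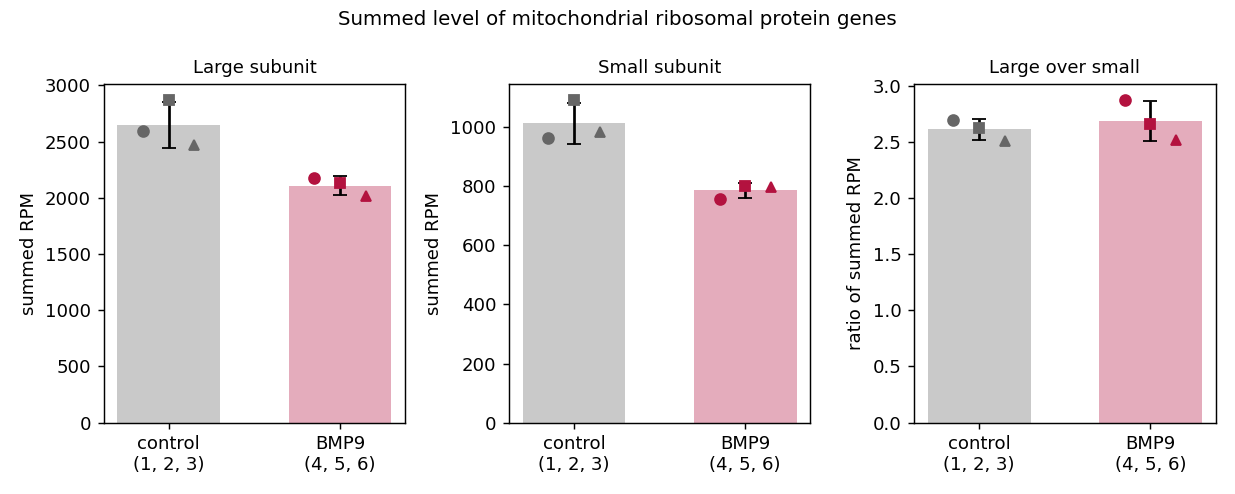
Summed RPM of the large subunit genes, of the small subunit genes, and the ratio of these sums (vertical axes, starting at 0) in the control and BMP9 overexpression groups. Bars are group means, error bars 1 SD (n = 3) and points single libraries, and on the deposited scale both sums lie lower in each BMP9 library than in any control library while the ratios overlap. With TMM factors the sums of the groups overlap too (large subunit 2250 to 2767 in controls and 2210 to 2366 with BMP9 overexpression).

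Counted gene by gene against the control mean, 49, 52 and 53 of the 66 tested members were lower in BMP9 replicates 4, 5 and 6. Median log2 differences were -0.57, -0.54 and -0.49, beside -0.20, -0.25 and -0.23 over all tested genes. No single BMP9 library carried the shift. Set against the mean of the other controls in the same way, control replicates 1, 2 and 3 had 34, 23 and 44 of 66 members lower, with medians of -0.02, 0.12 and -0.12.

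Large subunit proteins with counterparts in bacterial ribosomes form the conserved core around the rRNA. Of the 26 tested, 11 fell (42.3%, against 22.5% of all tested genes), 15 did not pass, and the median log2 difference was -0.72. With TMM factors 4 of the 26 were lower, where 14.6% of all tested genes were. Without control replicate 1 only 3 were, where 14.5% of all tested genes were. Mrpl20, counterpart of an rRNA-binding protein that bacteria need early in large subunit assembly, stood at 43.2, 60.5 and 25 RPM in control replicates 1, 2 and 3 and at 13.2, 9.3 and 13.1 RPM in BMP9 replicates 4, 5 and 6. The lowest control was well above the highest BMP9 library. The log2 difference was -1.70 ± 0.36 (SE, adjusted p = 0.00206), 3.62-fold in mean RPM.

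Mrpl11, whose bacterial counterpart lies at the base of the stalk where translation GTPases bind, was separated clearly. Its levels were 105, 83.2 and 85.5 RPM in controls and 34.4, 33.6 and 40.6 RPM with BMP9 overexpression. No overlap occurred, and even the closest pair of libraries differed by more than the spread within a group. The log2 difference of Mrpl11 was -1.31 ± 0.27 (SE, adjusted p = 0.00186).

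Mrpl13, counterpart of rRNA-binding protein L13, was less abundant and more variable, at 15.7, 32.5 and 11.5 RPM in controls and 3.54, 6.58 and 7.5 RPM with BMP9 overexpression. Control replicate 2 stood apart upwards, yet all controls lay above all BMP9 libraries. The log2 difference was -1.53 ± 0.42 (SE, adjusted p = 0.0109), but without control replicate 2 its adjusted p was no longer under 0.05. BMP9 replicate 4 rests on 7 reads of Mrpl13, so its level there is loosely known.

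Mrpl1, counterpart of the protein that forms the mobile stalk releasing spent tRNA, went from 46.9, 67.3 and 34 RPM to 12.7, 22 and 28.5 RPM (log2 difference -1.21 ± 0.36 SE, adjusted p = 0.017). Mrpl19, whose counterpart lies at the face toward the small subunit, went from 37.5, 37.1 and 27.5 RPM to 18.2, 10.4 and 15.2 RPM (-1.18 ± 0.33 SE, adjusted p = 0.0113). In both genes the groups did not overlap. Mrpl1 no longer passed with TMM factors (adjusted p = 0.0588), and neither passed without control replicate 1.

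The other 6 that fell in this group, Mrpl21, Mrpl15, Mrpl34, Mrpl2, Mrpl3 and Mrpl9, had log2 differences from -1.08 to -0.90. Mrpl2 and Mrpl3, whose counterparts flank the site of peptide bond formation, belonged to this set with -0.97 (adjusted p = 0.0264) and -0.96 (adjusted p = 0.015). Mrpl3 stood at 134, 84 and 104 RPM in controls against 56.7, 47.6 and 57.2 RPM, a gap of 1.99-fold between the means. None of the 6 passed with TMM factors.

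Not every core protein followed. Mrpl12, the stalk protein that recruits elongation factors, was measured at 26, 32.5 and 19.5 RPM in controls and 15.2, 23.1 and 17.3 RPM with BMP9 overexpression. Its groups overlapped, and the log2 difference of -0.46 (95% confidence interval -1.16 to 0.24, adjusted p = 0.296) did not pass. Mrpl18, whose bacterial counterpart binds 5S rRNA, stood at 133, 169 and 159 RPM against 107, 119 and 100.4 RPM. The groups of Mrpl18 did not overlap, but its difference of -0.49 did not pass either (95% confidence interval -1.03 to 0.06, adjusted p = 0.152).

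Large subunit proteins specific to mitochondria make up much of the outer layer of the particle. Of 18 tested, 4 fell and 14 did not pass, with a median log2 difference of -0.34. The 4 are 22.2% of the group, the level of all tested genes (22.5%). With TMM factors 2 were lower (against 14.6% of all tested genes), as were 2 without control replicate 1 (against 14.5%). Mrpl46, a protein of the central protuberance with a Nudix-like fold, stood at 41.9, 18.2 and 23.5 RPM in controls and at 5.57, 7.71 and 9.62 RPM with BMP9 overexpression. Control replicate 1 was high, and the lowest control was still above the highest BMP9 library. The log2 difference was -1.68 ± 0.38 (SE, adjusted p = 0.00298), 3.65-fold in mean RPM.

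Mrpl44, which has the fold of RNase III, was steady within each group, at 33.6, 27.2 and 33.5 RPM in controls and 13.7, 12.7 and 9.72 RPM with BMP9 overexpression. The difference was -1.32 ± 0.32 on the log2 scale (SE, adjusted p = 0.00456). Mrpl37, related in sequence to Mrps30, went from 117, 113 and 95.5 RPM to 58.7, 47.9 and 63.1 RPM (-0.93 ± 0.27 SE, adjusted p = 0.0138). Its partner in that family, Mrps30, went from 68.1, 72.6 and 67.5 RPM to 34.4, 55.1 and 43.4 RPM. The groups were apart in Mrps30 too, but at a log2 difference of -0.66 it missed the threshold (adjusted p = 0.0822). Mrpl41 was the fourth that passed, at -0.99 (adjusted p = 0.0341).

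In the small subunit, 3 of 15 tested genes with bacterial counterparts fell (median log2 difference -0.63), and 1 of 7 specific to mitochondria did (median -0.61). These shares of 20% and 14.3% lie below the 22.5% of all tested genes, and with TMM factors or without control replicate 1 limma called 0 genes of either set lower. Mrps5, whose counterpart lines the entry of the mRNA channel, varied little within each group, at 72.9, 77.9 and 70 RPM in controls and 40.5, 37 and 38.1 RPM with BMP9 overexpression. Every control library lay far above every BMP9 library. The log2 difference was -0.92 ± 0.27 (SE, adjusted p = 0.0154).

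Mrps27, a pentatricopeptide repeat protein, went from 35.6, 44.6 and 30 RPM to 16.2, 14.3 and 19.7 RPM (-1.08 ± 0.31 SE, adjusted p = 0.0143). Mrps15, counterpart of an rRNA-binding protein at the subunit interface, went from 48.7, 50.7 and 42.5 RPM to 16.2, 27 and 29.4 RPM (-0.98, adjusted p = 0.0245). Mrps6, counterpart of the bacterial partner of S18, lay lower, at 10.7, 13.6 and 6.5 RPM in controls and 3.54, 5.67 and 3.03 RPM with BMP9 overexpression (-1.13, adjusted p = 0.0361). In these 3 genes the groups did not overlap. With TMM factors no small subunit gene stayed below the threshold among those that fell, the closest being Mrps27 (adjusted p = 0.0525). Mrps35, the next in the mitochondrial set, went from 59.1, 40.1 and 56 RPM to 23.8, 34.5 and 36.5 RPM and did not pass (-0.70, adjusted p = 0.0872).

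The 3 Mrps18 genes encode relatives of bacterial S18 that occupy different places. Mrps18a, a large subunit protein, was at 20.9, 16.6 and 17.5 RPM in controls and 3.54, 18.6 and 5.39 RPM with BMP9 overexpression. BMP9 replicate 5 lay within the controls while replicates 4 and 6 lay far below, and the difference of -1.22 did not pass (adjusted p = 0.052). Mrps18c, the closest counterpart in the small subunit, was at 7.85, 5.3 and 6.5 RPM against 2.53, 4.99 and 2.04 RPM (-0.90, adjusted p = 0.0926), and it passed the filter through the 3 control libraries alone. Mrps18b differed from both, at 34.3, 43.1 and 45.5 RPM in controls and 67.4, 65.5 and 56.4 RPM with BMP9 overexpression. All BMP9 libraries lay above all controls for Mrps18b, and its difference of 0.62 (95% confidence interval 0.03 to 1.21) did not pass on the deposited scale (adjusted p = 0.0963). Whether the 3 genes differ from each other in their response was not tested.

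Mrpl51, Mrpl24 and Mrpl43, all large subunit genes, joined Mrps18b as the 4 members with every BMP9 library above every control. Mrpl51, specific to mitochondria, stood at 116, 87.8 and 131 RPM in controls and 171, 245 and 148 RPM with BMP9 overexpression (log2 difference 0.74, 95% confidence interval 0.13 to 1.34, adjusted p = 0.0545). Mrpl24, counterpart of a bacterial protein that starts large subunit assembly, stood at 57.6, 87.8 and 92.5 RPM against 189, 112 and 102 RPM (0.73, adjusted p = 0.0774). Mrpl43, specific to mitochondria, was at 49.3, 62.8 and 52.5 RPM against 90.7, 84.1 and 73.2 RPM (0.58, adjusted p = 0.103). None of the 4 passed on the deposited scale. With TMM factors all 4 did, at 0.99 (adjusted p = 0.0136), 0.98 (0.0247) and 0.84 (0.0267) for Mrpl51, Mrpl24 and Mrpl43 and 0.87 (0.026) for Mrps18b. The edgeR quasi-likelihood test and DESeq2 on reads recovered from the RPM values called the same 4 higher, beside 17.9% and 18.7% of all tested genes. Both tools also rescale the libraries, edgeR with TMM factors and DESeq2 with its own size factors. Their calls are therefore no independent check of the scaling.

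**Figure D4:**
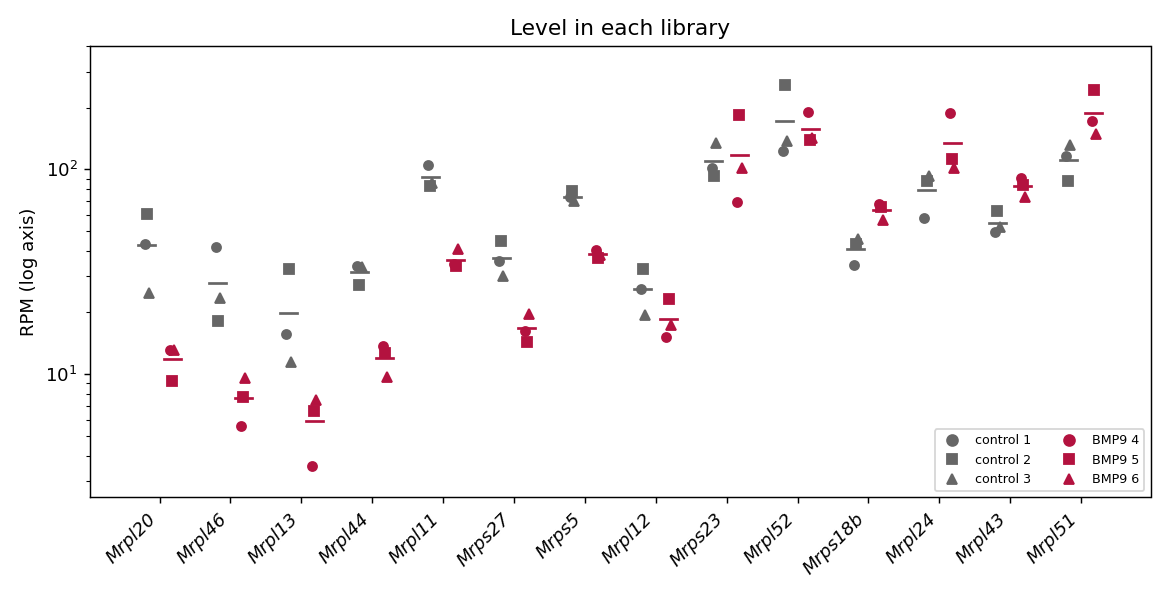
Level in RPM (vertical axis, log scale) of 14 members in each library, with controls in grey, BMP9 overexpression in red, a marker shape for each replicate and a line at each group mean. Mrpl20 to Mrps5 have all BMP9 points below all control points, Mrpl12, Mrps23 and Mrpl52 overlap, and Mrps18b to Mrpl51 have all BMP9 points above.

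**Figure D5:**
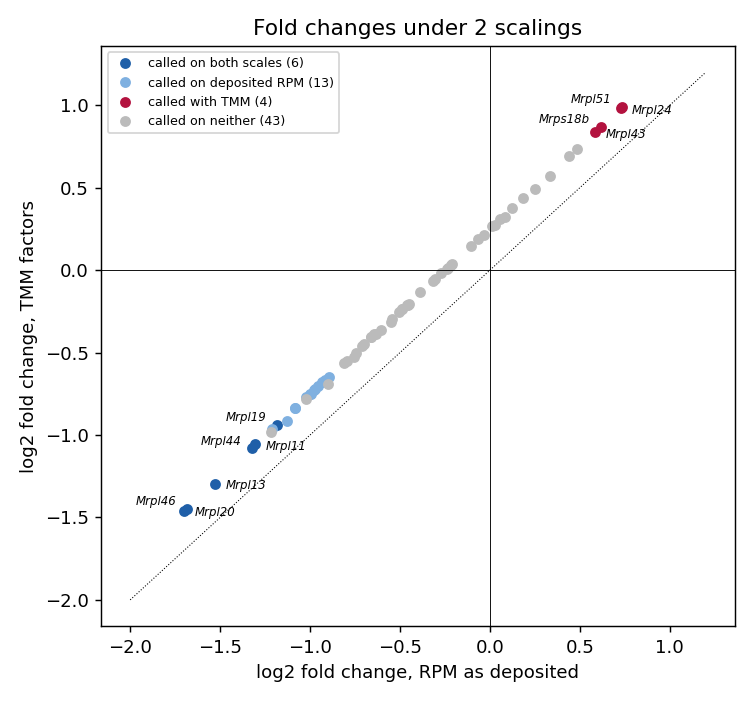
Log2 fold change of the 66 tested members on the deposited RPM scale (horizontal axis) and with TMM factors (vertical axis); the dotted line marks equal values. Points lie above that line by a near-constant step, 6 genes passed on both scales (all lower), 13 on the deposited scale alone (all lower), 4 with TMM factors alone (all higher) and 43 on neither.

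Among the members with the highest mean RPM were Mrpl52, Mrpl51, Mrpl54, Mrpl18 and Mrps23, though yields differ between the amplicons of a panel, so levels are not compared between genes here. Mrpl52 stood at 122, 258 and 137 RPM in controls and 190.4, 139.7 and 142 RPM with BMP9 overexpression, and Mrpl54 at 96.2, 225 and 109.5 against 144, 138 and 134 RPM. Both were high in control replicate 2 and their groups overlapped. The log2 differences were -0.07 (95% confidence interval -0.72 to 0.59) for Mrpl52 and 0.06 (-0.61 to 0.72) for Mrpl54. The smallest differences of all belonged to Mrps23 (0.01, interval -0.70 to 0.73), Mrps22 (0.03, interval -0.79 to 0.84), Mrpl48 (-0.03, interval -0.82 to 0.75) and Mrpl54, and their intervals take in changes of either sign.

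The 3 members below the filter were Mrpl36, Mrps26 and Mrps7. Mrpl36 had 21, 7 and 2 reads in control replicates 1, 2 and 3 and 2, 2 and 49 reads in BMP9 replicates 4, 5 and 6, or 1 to 5.3 RPM and 0.454 to 1.73 RPM. Mrps26 ranged over 1.5 to 14.4 RPM in controls and 1.36 to 3.04 RPM with BMP9 overexpression. Mrps7, counterpart of a protein that organises the head of the small subunit, had 1 to 3 reads in each library but BMP9 replicate 6, which had 12. At this depth no difference could be read from these 3 genes. Members such as Mrpl23, Mrpl27, Mrpl33 and Mrps34 were not analysed here.

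By the run time stamps in the labels, BMP9 replicates 5 and 6 carry a later stamp than the other 4 libraries, so the later stamp holds no control. Under the earlier stamp alone, where BMP9 replicate 4 is a single library assumed to vary like the controls, 13 members were lower (19.7%, against 17.6% of all tested genes) and 2 were higher (3.03%, against 10.3%). The 2 were Mrpl24 (1.27, adjusted p = 0.025) and Mrpl17 (1.03, adjusted p = 0.0389). Mrpl20, Mrpl46, Mrpl13 and Mrpl11 fell there too, by 1.55, 2.05, 2.07 and 1.37 on the log2 scale. Of the 4 genes with the smallest differences, Mrps23, Mrps22 and Mrpl48 turned sign, to -0.64, -0.83 and 0.69.

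The 69 members lie on 17 chromosomes of the mm10 build. Mrpl20 lies at chr4:155802878-155809975 on the plus strand, Mrpl11 at chr19:4962147-4966999 on the plus strand and Mrpl44 at chr1:79776018-79781445 on the plus strand, as whole gene spans in the GENCODE annotation. Mrpl46 (chr7:78775236-78783531, minus strand) and Mrps11 (chr7:78783119-78792989, plus strand) overlap at their 5′ ends. Mrpl46 fell by 1.68 on the log2 scale, while Mrps11 stood at 30.3, 34 and 37.5 RPM in controls and 33.4, 15.6 and 18.8 RPM with BMP9 overexpression and did not pass (-0.63, adjusted p = 0.157). In all, 22 members overlap another coding gene, Mrpl46, Mrpl13, Mrpl44 and Mrpl43 among them, and since the use of strand in counting is not given in the sources used here, reads of such pairs may not be separable.

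Head-to-head genes were sought, where a coding gene on the opposite strand starts within 1000 bases upstream and runs the other way. Pairs that overlap at their 5′ ends, such as Mrpl46 and Mrps11, were not counted. Such partners were found for 16 of 66 tested members (24.2%), against 11% of 8986 tested coding genes. The partners did not always move alike. Not every partner was tested, and the pairs named next are those whose partner passed. The members that fell and had such a partner were Mrpl41, Mrpl2, Mrpl37, Mrps5 and Mrps27, and none of their partners passed. Mrpl51 (0.74, not called) lies head to head with Ncapd2, a condensin subunit needed in mitosis, which fell (-2.74, adjusted p = 1.02e-05). Mrpl30 (-0.23, not called) pairs with Mitd1 (-1.57, adjusted p = 0.000666), Mrps12 (0.25, not called) with the mitochondrial seryl-tRNA synthetase gene Sars2 (-1.05, adjusted p = 0.0276), and Mrpl54 (0.06, not called) with Apba3 (0.87, adjusted p = 0.0284). The difference between partners was not tested.

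Promoter windows (250 bases before to 50 bases after a start site, RefSeq, GRCm38.p6) matched 61 of the 69 members, with 67 windows in all. Genes of this family are known targets of NRF1 and of the ETS factor GABPA, and YY1 and Myc bind many promoters of their kind, so both strands of each window were searched for one short core per factor. GCATGCGC (NRF1) was in 10.4% of member windows, against 5.56% of the windows of tested genes and 2.71% of all 32851 windows. CCGGAAGT (GABPA) was in 14.9%, against 8.63% and 3.89%, and AAGATGGCG (YY1) in 11.9%, against 3.34% and 1.4%. CACGTG (the E-box that Myc binds) was in 10.4%, against 10.2% and 7.15%. These 7 member windows belong to 5 of the 61 matched genes, because overlapping windows of Mrpl2 count separately. Matches of different cores did not overlap in member windows. These matches are a description of letters and not of bound sites.

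The cores were found in members of either course. Of the 16 matched genes that fell, 1 had the NRF1 core, 2 the GABPA core, 2 the YY1 core and 3 the E-box, and of the 45 other matched genes 6, 8, 6 and 2 had them. Stretches of 4 such promoters are shown, 5′ to 3′ on the strand of the gene, because they set genes that fell (Mrpl9 and Mrps27) beside genes with all BMP9 libraries above the controls (Mrpl43 and Mrpl51). Capitals mark the core matches on either strand, and in Mrpl9 the matches on the 2 strands overlap each other.
Mrpl9: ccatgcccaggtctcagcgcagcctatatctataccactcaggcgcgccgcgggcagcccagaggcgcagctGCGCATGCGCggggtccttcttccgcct
Mrps27: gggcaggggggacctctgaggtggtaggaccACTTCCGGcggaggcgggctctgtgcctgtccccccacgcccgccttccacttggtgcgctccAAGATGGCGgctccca
Mrpl43: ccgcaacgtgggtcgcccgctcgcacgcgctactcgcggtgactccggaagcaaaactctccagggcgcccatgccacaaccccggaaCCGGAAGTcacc
Mrpl51: caggggctaaaCCGGAAGTatttgactgga
They lie at chr3:94443236-94443335 (plus strand, Mrpl9), chr13:99344706-99344815 (plus strand, Mrps27), chr19:45006443-45006542 (minus strand, Mrpl43) and chr6:125192099-125192128 (plus strand, Mrpl51). Mrpl9 carries the NRF1 core and went from 51.3, 50.7 and 36.5 RPM to 34.4, 22.9 and 17.6 RPM (-0.90, adjusted p = 0.0427). Its call held in only 6 of 19 alternative analyses, and that of Mrps27 in 13 of 19. Mrps27, which fell, carries the GABPA core on the opposite strand before its start and the YY1 core just after it. The GABPA core also stands in Mrpl43 and Mrpl51, so the same letters occur in genes of opposite sign, though neither of these 2 passed on the deposited scale.

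Genes that work with the mitoribosome were described by lists of their roles. Of 4 tested mitoribosome proteins under other symbols, Ict1, a peptidyl-tRNA hydrolase built into the large subunit, fell from 80.7, 128 and 88.5 RPM to 69.9, 38.1 and 52.2 RPM (-0.89, adjusted p = 0.0332), with all BMP9 libraries below all controls, so that 25% of the list was lower, against 22.5% of all tested genes. Dap3 (-0.21), Chchd1 (0.04) and Ptcd3 (0.15), all of the small subunit, did not pass. The median of the 4 was -0.08, and with TMM factors it was 0.16 and Ict1 did not pass (adjusted p = 0.125).

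Mitochondrial translation factors fell in 3 of 11 tested genes (27.3%, against 22.5% of all tested genes, median log2 difference -0.36). These were Gfm2, which splits ribosomes after termination (-1.44, adjusted p = 0.00917), Guf1, a relative of the bacterial GTPase LepA (-1.19, adjusted p = 0.0117), and Mtrf1l, a release factor (-1.10, adjusted p = 0.0136). All 3 also passed with TMM factors, where 14.6% of all tested genes were lower. Without control replicate 1 the count was 2, where 14.5% of all tested genes were lower. Gfm2 stood at 3.04, 3.63 and 3.8 RPM in BMP9 replicates 4, 5 and 6 and passed the filter through the 3 control libraries alone. Assembly and rRNA modification factors fell in 4 of 19 tested genes (21.1%, against 22.5%, median -0.47), among them Mettl15, a methyltransferase of the small subunit rRNA (-1.59, adjusted p = 0.00889), the GTPase Noa1 (-1.25, adjusted p = 0.00976) and the helicase Dhx30 (-1.06, adjusted p = 0.019). With TMM factors 2 of the 19 were lower, against 14.6% of all tested genes, and Dhx30 did not pass (adjusted p = 0.0589). Without control replicate 1 also 2 were, against 14.5% of all tested genes. Mettl15 stood at 0.506, 2.5 and 1.4 RPM in BMP9 replicates 4, 5 and 6 and likewise passed the filter through the 3 control libraries alone.

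Mitochondrial aminoacyl-tRNA synthetases, which charge the tRNAs used by the mitoribosome, fell in 6 of 16 tested genes (37.5%, against 22.5% of all tested genes), with a median of -0.79. The count was 2 with TMM factors, where 14.6% of all tested genes were lower. Without control replicate 1 it was 0, where 14.5% of all tested genes were lower. Vars2 (valine) stood at 52.6, 24.2 and 45.5 RPM in controls and 11.1, 17.2 and 16.8 RPM with BMP9 overexpression (-1.33, adjusted p = 0.00907). Cars2 (cysteine) and Sars2 (serine) followed at -1.13 (adjusted p = 0.0112) and -1.05 (adjusted p = 0.0276), and Sars2 did not pass with TMM factors (adjusted p = 0.0754). Among genes for mitochondrial DNA and RNA upkeep 2 of 11 fell (18.2%, against 22.5%, median -0.66). These were Lrpprc, which stabilises mitochondrial mRNAs (-1.15, adjusted p = 0.0189), and Tfam, which packages mitochondrial DNA and takes part in its transcription (-0.97, adjusted p = 0.0236). Neither passed with TMM factors (adjusted p = 0.0676 and 0.0783) or without control replicate 1. The mitochondrially encoded mRNAs were not analysed here.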

How the data were processed

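CD31-positive cells were sorted by FACS, RNA was isolated with a PicoPure kit, and libraries came from the Ion AmpliSeq Transcriptome Mouse panel on Ion Torrent, per the labels' protocols. The authors deposited RPM, in which each library's column sums to the same total. The build is mm10, per the submitters' processing notes, and for the aligner, counter, filters and use of strand the entry is "not given in the sources used here".

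Whole reads were recovered for 100% of nonzero values within 0.05 reads (largest deviation 0.0162 reads) and gave the depths. Reads are PCR copies without molecular identifiers. Differences were tested in R 4.3.3 with limma 3.58.1 (limma-trend), without further scaling, on log2(RPM + 1) of every gene that reached 5 RPM in at least 3 libraries, and p-values were adjusted over all tested genes (Benjamini-Hochberg). A pseudocount understates changes of low genes. Called means an adjusted p under 0.05, and fold changes are BMP9 overexpression minus control. The procedure was tested on simulated data. On the recovered reads edgeR 4.0.16 called 1421 genes lower and 1693 higher, and DESeq2 1.42.0 called 1546 lower and 1771 higher. Unlike the limma test, edgeR rescaled the libraries with TMM factors and DESeq2 with its own size factors.

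The members and lists were chosen with earlier results of these data known. Members are named by a rule: the 8 called members with the largest change each way, the 3 with the smallest p in each role group, the 5 with the highest mean, the 4 with the smallest difference, those below the filter, Mrps18 genes, Mrps30 and Mrpl12, and the 3 with the smallest p of each companion list. A companion gene that the rule names is not reported here. Other members and all neighbouring genes were named after their values were seen. Gene spans are from GENCODE and promoters from RefSeq.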

Additional observations from a re-analysis of the deposited data

How the results depend on the processing

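Across 19 alternatives the median member stayed negative and below the median of all tested genes, but the calls did not hold alike. With no filter 10 members were called lower, and 5 to 21 when 1 library was left out, against 19 in the test above. The number was 6 with TMM factors (9.09% of members, against 14.6% of all tested genes) and 10 with quantile normalization (15.2%, against 16.2%). It was 33 with array weights (50%, against 35.4%), 6 with edgeR (9.09%, against 15%) and 11 with DESeq2 (16.7%, against 16.3%). Without control replicate 1 it was 5 (7.58%, against 14.5%). The number called higher, against 0 in the test above, was 4 with TMM factors (6.06% of members, against 17.2% of all tested genes). It was 3 with quantile normalization (4.55%, against 16.2%) and 4 with array weights (6.06%, against 18.5%). Both edgeR and DESeq2 gave 4 (6.06%, against 17.9% and 18.7%). Without control replicate 1 it was 0, against 9.98%. It was 2 with the run stamp as covariate, 1 on reads thinned to the shallowest library and 0 to 1 with 1 library left out. For settings without a share, that of all tested genes is not given here. The median log2 difference was -0.34 with TMM factors, -0.38 with quantile normalization, -0.35 with edgeR and -0.36 with DESeq2, against -0.58. All of these settings rescale the libraries to one another. The distance of the median member from the median of all tested genes was -0.34 in the test above. It was also -0.34 with TMM factors and with quantile normalization, and -0.56 with no filter. The cause was not tested.

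Of the 19 genes called lower, 3 (Mrpl20, Mrpl11 and Mrpl46) were called in every alternative that tested them. Without control replicate 1, 14 of the 19 lost the call, and with TMM factors 13 did. Mrpl44 lost it only under the earlier stamp alone (adjusted p = 0.0508).

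Signs turned only among named members that were not called. Mrpl52 stood at 0.19 with TMM factors, 0.015 with quantile normalization, 0.030 with array weights, 0.22 with the stamp as a covariate or the earlier stamp alone, 0.11 with edgeR and 0.089 with DESeq2. Mrpl48 stood at 0.21, 0.24, 0.69, 0.24 and 0.23 with TMM factors, quantile normalization, the stamp in either way, edgeR and DESeq2. Mrps23 stood at -0.062 with array weights and -0.64 with the stamp in either way, and Mrps22 at -0.83 with the latter. With 1 library left out, Mrpl52 ranged from -0.27 to 0.26, Mrpl54 from -0.18 to 0.43, Mrps23 from -0.36 to 0.34, Mrps22 from -0.33 to 0.46 and Mrpl48 from -0.40 to 0.23.

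No paired analysis was possible because the groups share no replicate numbers. Levels under about 5 RPM rest on few reads in the shallower libraries.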

Other observations

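Of 15 tested cytosolic ribosomal protein genes 6 fell (40%, against 22.5% of all tested genes), with a median log2 difference of -0.79, and Rpl30 stood at 224, 186 and 177 RPM in controls and 95.2, 87.5 and 81.2 RPM with BMP9 overexpression (-1.14, adjusted p = 0.00297). Rpl32 fell as well (-1.73, adjusted p = 0.00422). Several of these genes have near-identical copies in the genome, so their levels are uncertain. The list holds only 23 genes, matched by symbol, and takes in like-named genes such as Rpl3l, Rpl10l and Rps4l. Its share therefore does not describe the cytosolic ribosome as a whole. Of 32 nuclear-encoded subunits of complex I, the entry point of the respiratory chain, 8 fell and 24 did not pass (25%, against 22.5%, with a median of -0.32 against -0.24 over all tested genes). The lowest p-values were those of Ndufb6 (-1.45, adjusted p = 0.000884), Ndufb8 (-1.50, adjusted p = 0.000987) and Ndufs3 (-1.17, adjusted p = 0.00419). With TMM factors 3 cytosolic ribosomal protein genes and 5 complex I genes were called lower, beside 14.6% of all tested genes. Without control replicate 1 the counts were 4 and 5, beside 14.5% of all tested genes.

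Regulators of nuclear genes for mitochondria fell in 4 of 9 tested genes (44.4%, against 22.5% of all tested genes, median -0.72). Tfam, among the 4, was also counted with the genes for mitochondrial DNA and RNA upkeep. The count was 2 with TMM factors, where 14.6% of all tested genes were lower. Without control replicate 1 it was also 2, where 14.5% of all tested genes were lower. Myc, a growth regulator of ribosome production, stood at 378, 301 and 208 RPM in controls and 88.1, 87.3 and 98.7 RPM with BMP9 overexpression, with no overlap of groups (-1.64, adjusted p = 0.000395). Gabpa, the ETS factor whose core letters were searched for in the promoters, stood at 74.2, 87.8 and 38.5 RPM against 13.7, 18.1 and 26.5 RPM (-1.70, adjusted p = 0.00211). Both also passed with TMM factors, while Tfam did not (adjusted p = 0.0783). No link between these factors and the member genes was tested.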
